A study of Homo sapiens with 8 samples.

Results

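Open chromatin was followed at 4 human loci, those of DIEXF, ACIN1, LSR and WDR62, in cells in which expression of AIRE can be switched on. The loci were defined as fixed stretches of the hg19 build, and their windows lie on chromosome 1 from 210001101 to 210001700 (DIEXF), on chromosome 14 from 23563701 to 23564850 (ACIN1), and on chromosome 19 from 35738451 to 35744800 (LSR) and from 36541201 to 36551700 (WDR62). They were chosen because they held some of the deepest losses of signal between libraries with and without AIRE induction, so that difference is given below as a description, without a test. Of the 256141 windows of 150 bp in the table, 163 start within the 4 loci: 7 at DIEXF, 21 at ACIN1, 61 at LSR and 74 at WDR62. The cells were AIRE-Tet, a line with inducible human AIRE made from Tet-On Advanced HEK293, an embryonic kidney line, and all groups carry that construct. Each of 4 groups had 2 biological replicates. Control was left untreated, Dox received doxycycline at 1.5 µM, Etop received only etoposide at 2 µM for 24 h, and in DoxEtop 24 h of AIRE induction came before the same etoposide treatment. How long Dox was induced is not given here, so Dox and DoxEtop may differ in induction time as well as in etoposide. All libraries come from 1 engineered line, and doxycycline in cells without the AIRE construct was not analysed here, so the drug and AIRE cannot be told apart. "Induced" below means the 4 Dox and DoxEtop libraries, and "uninduced" the 4 Control and Etop libraries.

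FAIRE-seq enriches DNA that is poorly covered by nucleosomes, and active promoters usually stand out in it. In thymic epithelial cells AIRE promotes the expression of tissue-restricted genes, and it is known to act with topoisomerase II and other DNA break factors. Etoposide traps topoisomerase II on DNA and leaves breaks. The 4 genes have housekeeping or cell-structure roles. DIEXF, now named UTP25, is a nucleolar factor of small ribosomal subunit assembly. ACIN1 is a nuclear protein of the exon junction complex with a part in chromatin condensation during apoptosis. LSR is a lipoprotein receptor that also organises tricellular junctions. WDR62 is a spindle pole and centrosome scaffold whose loss causes microcephaly.

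The promoter sequences that give the loci their names are shown here so that their base composition can be set beside the profiles. They run from 250 bases before to 50 after each RefSeq gene start on the GRCh38.p14 build, 5′ to 3′ on the gene's strand, and all 4 genes were found in the RefSeq table. Capitals mark matches on either strand to any of 7 motifs, the E-box, GC box, ETS core, CCAAT box, TATA box, YY1 motif and NRF1 palindrome. None of these motifs holds another.
DIEXF (UTP25), plus strand, chr1:209827722-209828021: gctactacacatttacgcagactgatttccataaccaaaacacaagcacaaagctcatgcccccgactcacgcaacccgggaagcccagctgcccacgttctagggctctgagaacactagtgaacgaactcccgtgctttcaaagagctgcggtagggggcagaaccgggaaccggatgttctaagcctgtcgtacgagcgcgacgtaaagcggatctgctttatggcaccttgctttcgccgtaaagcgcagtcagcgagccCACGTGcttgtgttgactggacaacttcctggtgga
ACIN1, upstream start, minus strand, chr14:23095422-23095721: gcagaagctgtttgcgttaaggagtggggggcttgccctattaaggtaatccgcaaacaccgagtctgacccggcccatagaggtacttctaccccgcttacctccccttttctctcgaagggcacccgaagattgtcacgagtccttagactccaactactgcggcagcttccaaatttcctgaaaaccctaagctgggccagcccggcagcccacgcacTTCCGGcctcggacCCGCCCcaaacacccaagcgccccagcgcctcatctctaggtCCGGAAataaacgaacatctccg
ACIN1, next start, minus strand, chr14:23095087-23095386: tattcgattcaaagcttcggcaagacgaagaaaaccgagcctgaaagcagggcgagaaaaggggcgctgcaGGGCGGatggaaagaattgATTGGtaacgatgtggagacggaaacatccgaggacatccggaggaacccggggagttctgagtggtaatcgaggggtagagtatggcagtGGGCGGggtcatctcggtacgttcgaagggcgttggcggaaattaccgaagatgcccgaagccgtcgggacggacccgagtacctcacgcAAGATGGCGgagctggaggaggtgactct
LSR, plus strand, chr19:35248752-35249051: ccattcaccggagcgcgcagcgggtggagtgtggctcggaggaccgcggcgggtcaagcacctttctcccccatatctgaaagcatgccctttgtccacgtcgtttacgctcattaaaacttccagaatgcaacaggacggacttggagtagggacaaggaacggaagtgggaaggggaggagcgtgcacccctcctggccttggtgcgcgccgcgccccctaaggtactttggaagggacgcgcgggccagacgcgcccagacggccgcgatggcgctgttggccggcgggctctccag
WDR62, plus strand, chr19:36054647-36054946: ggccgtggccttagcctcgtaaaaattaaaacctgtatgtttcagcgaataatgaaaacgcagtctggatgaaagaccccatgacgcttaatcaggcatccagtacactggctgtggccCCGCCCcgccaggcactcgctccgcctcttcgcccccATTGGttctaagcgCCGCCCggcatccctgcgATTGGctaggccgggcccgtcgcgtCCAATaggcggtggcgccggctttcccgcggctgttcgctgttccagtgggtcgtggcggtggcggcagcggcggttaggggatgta

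These coordinates are on another build than the windows and cannot be set against window positions, so no window is placed on a gene start here. The 5 stretches held 19 to 29 CG dinucleotides, against a median of 14 over the 35116 promoters of the table. The DIEXF stretch had more than 60.5% of promoters, the ACIN1 ones more than 57.1% and 71.8%, and those of LSR and WDR62 more than 75.8%. Their GC content was 55%, 57.7%, 57%, 64.3% and 62%, in the order printed, against a median of 58.7%. The WDR62 stretch held 3 CCAAT boxes, searched for as ATTGG and found in 34.6% of all promoters. It also held 2 GC boxes, whose letters are GGGCGG and which occur in 45% of promoters. The upstream ACIN1 stretch held 1 GC box and 2 ETS cores, searched for as CCGGAA and found in 17.2% of promoters. The next ACIN1 stretch held 2 GC boxes, 1 CCAAT box and 1 YY1 motif, whose letters are AAGATGGCG and which occurs in 1.75% of promoters. DIEXF held 1 E-box, searched for as CACGTG and found in 7.26% of promoters, and LSR held none of the motifs. Another ACIN1 start in RefSeq, with 5 CG dinucleotides and no match, is not shown. The TATA box, searched for as TATAAA (11.5% of promoters), and the NRF1 motif (1.24%) matched in none of the 5. A match is only a run of letters, and no match says nothing of a factor. ACIN1 and C14orf119, and WDR62 and THAP8, lie head to head: the RefSeq promoter stretches of each pair overlap on opposite strands. FAIRE signal there cannot be assigned to 1 gene of the pair.

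Counts summed over windows were 4489871 to 5305079 in the induced and 4568818 to 8275911 in the uninduced libraries. Neighbouring windows overlap by construction, so these sums are not depths. CPM below are counts scaled to a common column total, and 3 counts were worth 0.361 to 0.662 CPM. Every window of the table held at least 111 counts over the 8 libraries, so a window at which all libraries were low is not in it. Control replicate 1 had the lowest level of the uninduced libraries at the deepest loss of all 4 loci, and values without it are given beside the results it moves.

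Lost windows were those called lower with AIRE induction by edgeR's quasi-likelihood test with etoposide as a second factor (Benjamini-Hochberg adjusted p under 0.05 over all 256141 windows). They numbered 36 of 163, or 22.1%, against 6.17% of all windows, and 7 of 163 (4.29%) were called higher, against 1.27%. Since the loci were picked by this contrast, nothing is read from these shares. The count of 7 was 11 without Control replicate 1, 1 without Control replicate 2, 2 without Dox replicate 2 and 1 without DoxEtop replicate 2. Over the whole table, the 3253 windows called higher became 4531, 718, 1142 and 1765 in the same fits. The median log2 fold change was -0.40 over the 163 windows and 0.04 over all windows tested. Of the 43 windows in the table with a log2 fold change under -4 (0.0168%), 10 lay in these loci: 5 at DIEXF, 3 at WDR62 and 1 each at ACIN1 and LSR. The name "closed promoter" covers only part of what the profiles show. At DIEXF the lost windows held most of the signal of uninduced libraries. At LSR and WDR62 the window with the highest mean CPM over the 8 libraries was not lost. The strongest WDR62 window of Etop replicate 1 alone, at 36545351, was lost. At ACIN1 the window with the highest mean CPM, at 23564301, was lost, with a log2 fold change of -1.01. Overlapping windows share sequence, so they are not independent events. One scaling changed the picture at the deepest windows. With loess offsets along each window's mean log count, added after the data were seen, 27 windows were called lower, 23 of them among the 36, and 32 of the 36 kept a negative log2 fold change. That offset is computed from a mean which near-empty libraries themselves lower. The other scalings (size factors of DESeq2, column totals, loess offsets along the average log2 CPM) called 36, 36 and 41. Counts by locus under other fits, given below, stand beside calls that also fell over the whole table. Against 15809 windows lower as reported, limma-voom called 625, and 10624 were called with the offsets along the mean log count. Without Control replicate 2 the number was 6639, and without DoxEtop replicate 1 it was 8188.

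**Figure D1:**
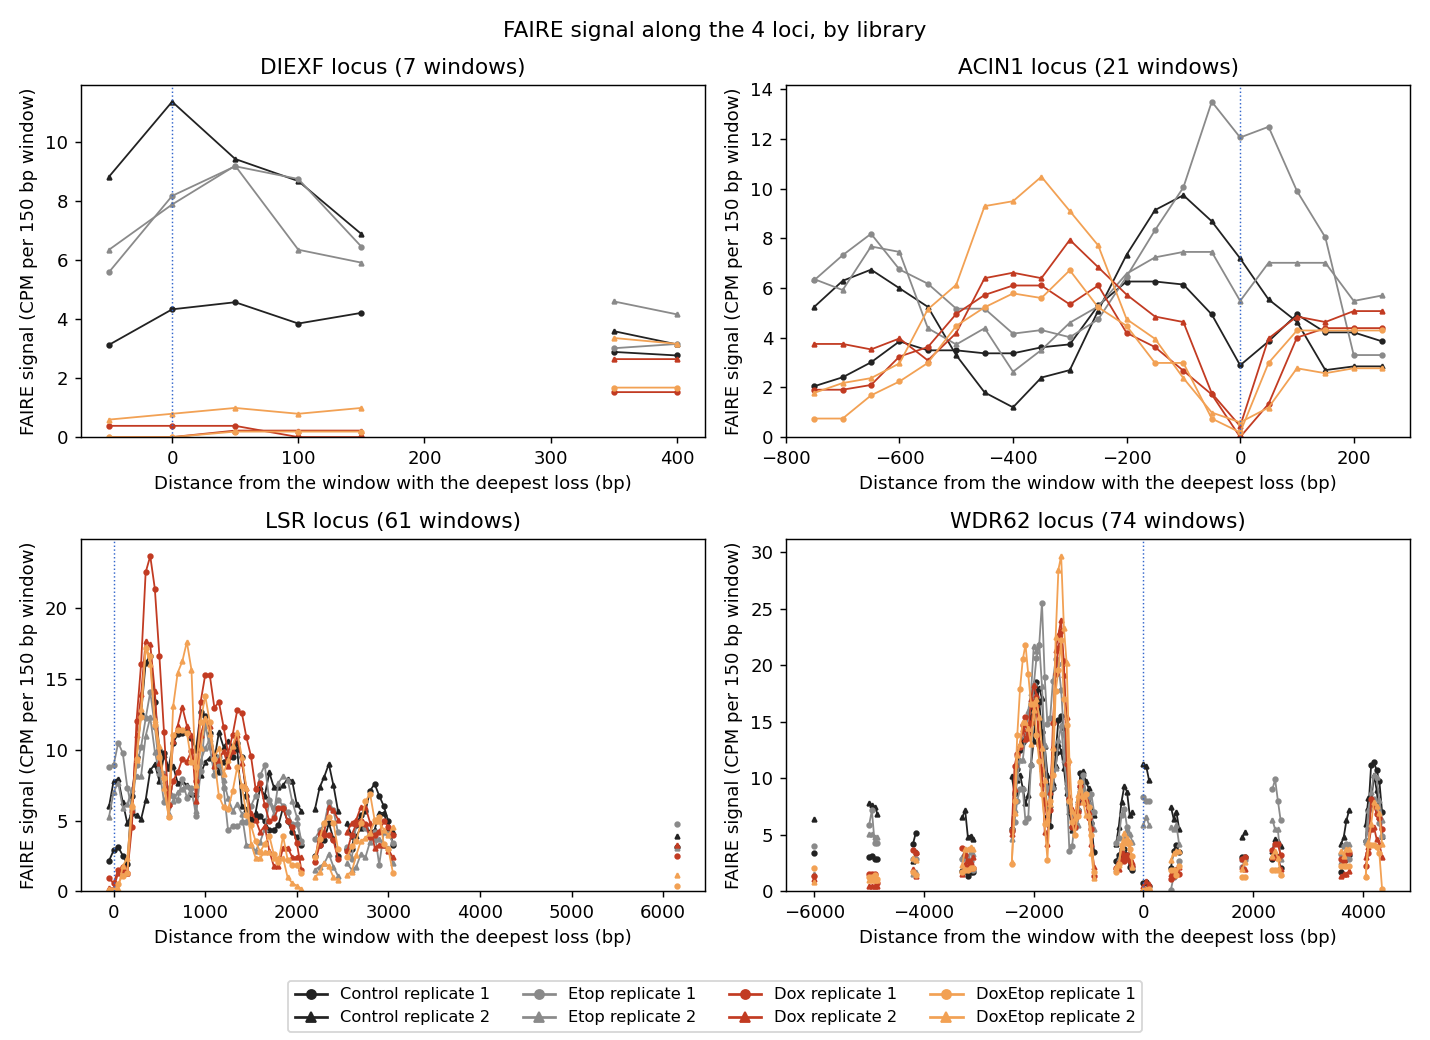
FAIRE signal (CPM per 150 bp window, vertical axis) against distance from the window of deepest loss in bp (horizontal axis) for the 8 libraries at each locus; black and grey are Control and Etop, red and orange Dox and DoxEtop, circles replicate 1 and triangles replicate 2, and lines break where the table has no window. Induced libraries fall to near 0 at the dotted line in all 4 panels, and at LSR and WDR62 the highest windows of the locus lie elsewhere.

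At DIEXF, the ribosome assembly factor, 1 region from 210001101 to 210001700 held all 7 windows, and 5 adjoining windows of it were lost. At the deepest, starting at 210001151, counts were 36 and 76 in Control, 57 and 36 in Etop, 2 and 0 in Dox, and 0 and 4 in DoxEtop. No induced library came near an uninduced one. The level was 0.293 ± 0.378 CPM in induced and 7.95 ± 2.88 CPM in uninduced libraries (SD, n = 4 each), and the pooled level was 26.0-fold lower (95% counting interval 11.8 to 71.8, exact binomial). Such intervals pool the libraries of an arm, so they cover counting error only and leave out the spread between libraries. Even counting error may be understated, since reads without molecular identifiers are not independent molecules. All 5 lost windows had log2 fold changes between -4.65 and -4.03. They spanned 350 bp, where induced libraries held 0 to 5 counts and uninduced ones 26 to 76. With the offsets along the mean log count, only 1 of the 5 was called and the deepest had a log2 fold change of -1.35. The test of limma-voom called 0 of the 5. Only 2 of them reached 200 summed counts, and both were called in the fit of such windows.

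The other 2 DIEXF windows, from 210001501 on, kept their signal in part. The first had 24 and 24 counts in Control, 21 and 21 in Etop, 8 and 12 in Dox, and 9 and 17 in DoxEtop. Its level was 2.30 ± 0.863 CPM in induced and 3.53 ± 0.781 CPM in uninduced libraries, and the 2 arms overlapped. Signal thus fell by different amounts 350 bp apart: the log2 fold change was -4.65 (SE 0.505) at the deepest window and -0.61 (SE 0.400) at this one.

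At ACIN1, the exon junction complex protein, 1 region from 23563701 to 23564850 held all 21 windows: 8 were lost, 3 gained and 10 not called. The lost windows numbered 4 without Control replicate 2 or without DoxEtop replicate 1, 5 without Dox replicate 1, and 1 with limma-voom. The deepest loss, starting at 23564451, had 24 and 48 counts in Control, 84 and 25 in Etop, 0 and 2 in Dox, and 1 and 3 in DoxEtop. The arms did not overlap, at 0.305 ± 0.264 against 6.91 ± 3.87 CPM (SD, n = 4 each). The pooled level was 22.98-fold lower in induced libraries (95% counting interval 10.4 to 63.5), and the log2 fold change of -4.46 became -1.05, no longer called, with the offsets along the mean log count. The loss was narrow. The next window on one side, from 23564401, had a log2 fold change of -2.70, and that on the other, from 23564501, -1.56. The last 2 windows of the region, from 23564651, had 0.07 and 0.10.

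The 3 gained ACIN1 windows, from 23564051 to 23564300, lay between that trough and a second run of 3 lost windows. The one starting at 23564051, singled out after its values were seen, had 28 and 8 counts in Control, 29 and 12 in Etop, 32 and 30 in Dox, and 31 and 48 in DoxEtop. Scaled to library size, all 4 induced libraries lay above all 4 uninduced ones, at 6.999 ± 1.70 against 2.84 ± 1.26 CPM (SD, n = 4 each). Its log2 fold change was 1.27 (SE 0.314). The second lost run, from 23563701 to 23563950, was shallower, with log2 fold changes of -1.37 to -1.27. It held 4 to 17 counts in induced against 17 to 57 in uninduced libraries. Scaled to library size, the arms overlapped in all 3 windows: at 23563701 Dox replicate 2 had 3.75 CPM and Control replicate 1 had 2.05 CPM. Log2 fold changes in this run were -0.78 to -0.36 in Dox vs Control and -2.32 to -1.96 in DoxEtop vs Etop. Along this 1150 bp region the induced mean thus ran low, high, low and again level with the uninduced mean.

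At LSR, the lipoprotein and junction receptor, 60 windows formed 1 region of 3250 bp (35738451 to 35741700) and 1 window stood alone. In all, 10 windows were lost, 1 gained and 50 not called. The lost windows numbered 4 without Control replicate 2, 5 without either DoxEtop replicate and 0 with limma-voom. They numbered 5 among windows of at least 200 summed counts, a filter that left out the deepest loss. The deepest loss sat at the edge of the region. Windows there reach the floor of 111 summed counts only through the uninduced libraries, so that edge is set in part by the floor. The deepest window, from 35738501, had 24 and 52 counts in Control, 62 and 32 in Etop, 3 and 1 in Dox, and 0 and 1 in DoxEtop. The arms did not overlap, at 0.248 ± 0.238 against 6.65 ± 2.62 CPM (SD, n = 4 each), and the pooled level was 25.9-fold lower (95% counting interval 10.9 to 80.8). The log2 fold change of -4.61 became -0.9991, no longer called, with the offsets along the mean log count.

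The strongest LSR window lay 400 bp further on, at 35738901, and was not lost. It had 138 and 57 counts in Control, 98 and 56 in Etop, 124 and 79 in Dox, and 89 and 81 in DoxEtop. Its level was 18.4 ± 3.53 CPM in induced and 12.9 ± 3.40 CPM in uninduced libraries, with overlapping arms and a log2 fold change of 0.51 (SE 0.204). The log2 fold change thus went from -4.61 to 0.51 over 400 bp. The other 5 lost windows, from 35740301 to 35740700 in the low shoulder of the region, had log2 fold changes of -1.60 to -1.09.

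At WDR62, the spindle pole scaffold, the 74 windows fell into 11 regions, and 13 lost windows were spread over 5 of them. There were 7 among windows of at least 200 summed counts, a filter that left out the deepest loss, and 2 with limma-voom. The deepest loss in the 4 loci was here, in a region from 36546701 to 36547450. Its window starting at 36547201 had 6 and 75 counts in Control, 58 and 27 in Etop, 0 and 2 in Dox, and 0 and 1 in DoxEtop. The other uninduced libraries were far above the induced ones, whereas Control replicate 1, at 0.723 CPM, was close to Dox replicate 2, at 0.441 CPM. The means were 0.160 ± 0.210 CPM in induced and 6.55 ± 4.45 CPM in uninduced libraries (SD, n = 4 each), and the pooled level was 42.2-fold lower (95% counting interval 14.2 to 206.5). The log2 fold change was -5.26 (SE 0.676), -5.77 without Control replicate 1 and -4.41 without Control replicate 2, and it turned to 0.03 with the offsets along the mean log count. In the other 2 lost windows of this run the arms overlapped. The other 7 windows of the same region, starting from 36546701 to 36547001, had log2 fold changes of -0.83 to -0.31 and were not called.

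The main WDR62 region, 1650 bp from 36544801 to 36546450, lost 4 windows and gained 3 of 31. Its strongest window on average, at 36545701, stood at 15.5 and 12.4 CPM in Control, 17.8 and 14.7 CPM in Etop, 23.1 and 24.0 CPM in Dox, and 22.2 and 29.7 CPM in DoxEtop. All 4 induced libraries were above all 4 uninduced ones, at 24.7 ± 3.37 against 15.1 ± 2.22 CPM (SD, n = 4 each). The log2 fold change was 0.71 (SE 0.183), and without DoxEtop replicate 2 it was 0.63 and not called. At 36545351, a window singled out after its values were seen, counts were 117 and 114 in Control, 178 and 83 in Etop, 50 and 49 in Dox, and 46 and 64 in DoxEtop. There the order was the reverse, at 10.4 ± 1.76 against 18.7 ± 4.87 CPM, a log2 fold change of -0.84 (SE 0.206). In a separate region from 36542201 to 36542500, all 4 listed windows were lost. Each window had 2 to 8 counts in each induced and 22 to 52 in each uninduced library. The induced libraries pooled held 17 to 23 counts a window. The floor of 111 summed counts was thus reached only through the uninduced libraries, which favours a region lost throughout. The region's log2 fold changes were -2.47 to -2.08. The last 3 lost windows stood singly, at 36541201, 36546301 and 36551251, with log2 fold changes of -1.82 to -1.28.

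**Figure D2:**
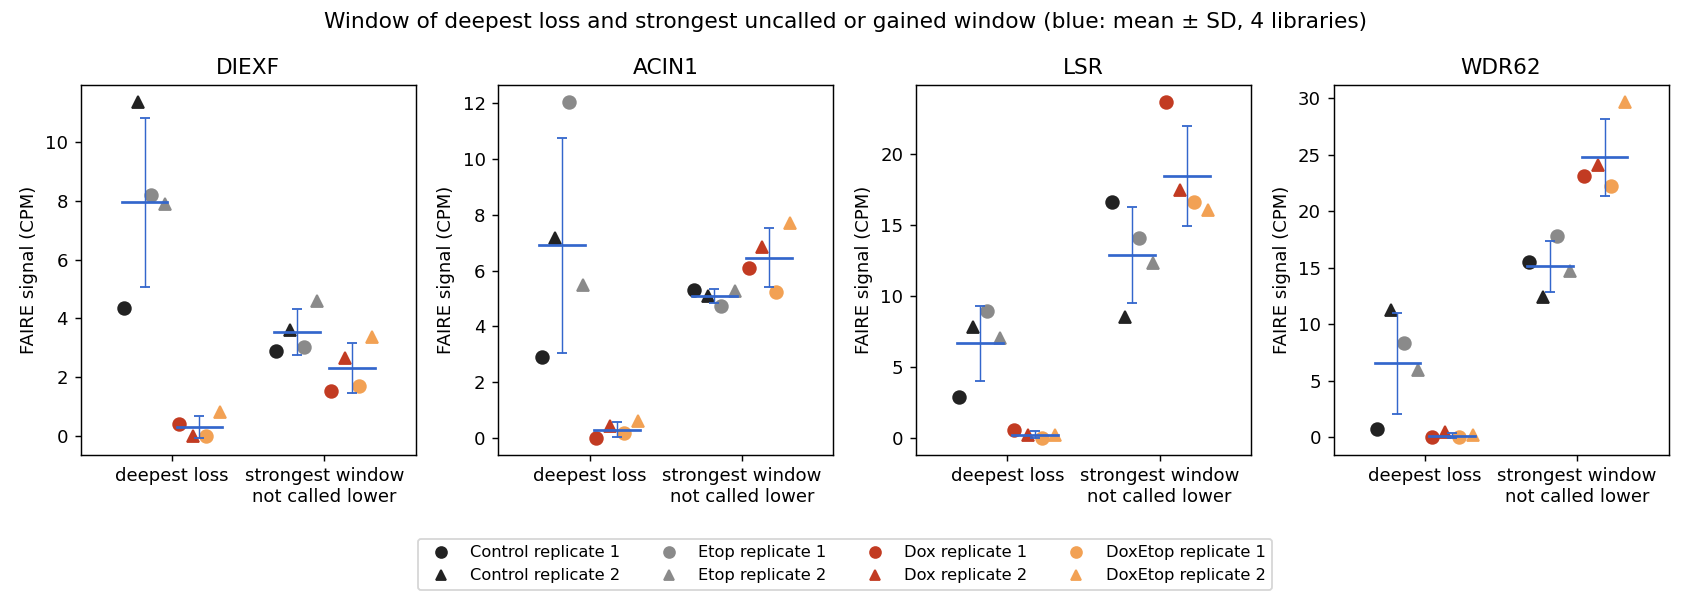
FAIRE signal in CPM (vertical axis) of each library in the window of deepest loss and in the strongest window not called lower, for each locus; points are libraries, and blue bars are the mean ± SD of the 4 uninduced (left) and 4 induced (right) libraries. Induced libraries are at 0.791 CPM or lower in every deepest window, and at WDR62 they are above the uninduced libraries in the strongest one.

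Of the 36 lost windows, 25 had all 4 induced libraries below all 4 uninduced ones in CPM. Over all 163 windows this held for 32, or 19.6%, against 7.49% of the table, and the opposite held for 10, or 6.13%, against 4.98%. Among the 120 windows not called, 72 had a log2 fold change below 0, with a median of -0.22. No such share over the whole table is given here, and some of these windows overlap lost ones, so nothing is read from it. By locus, the median over windows not called was -0.58 at DIEXF, -0.53 at WDR62, -0.15 at ACIN1 and 0.06 at LSR. That of DIEXF rests on 2 windows that overlap each other. The lost window with the adjusted p closest to the threshold, at 23563701 in ACIN1, had an adjusted p of 0.0403 and a log2 fold change of -1.27. The nearest one outside, at 36551301 in WDR62, had 0.0576 and -0.82.

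Lost windows were next set against the rest of their own locus within each library, which needs no scaling between libraries. At DIEXF they held 78.0% and 87.0% of the locus' counts in Control and 86.1% and 80.3% in Etop, against 27.3% and 11.1% in Dox and 14.3% and 38.9% in DoxEtop. At ACIN1 the shares were 37.0% and 54.9% in Control, 52.3% and 44.6% in Etop, 19.6% and 27.4% in Dox, and 17.9% and 16.9% in DoxEtop. LSR had 7.87% and 15.9% in Control, 17.7% and 18.3% in Etop, 5.68% and 4.22% in Dox, and 3.42% and 2.53% in DoxEtop. WDR62 had 11.4% and 20.3% in Control, 21.0% and 16.2% in Etop, 7.09% and 6.63% in Dox, and 6.22% and 7.07% in DoxEtop. The 2 arms did not overlap at any locus, which the choice of windows favours, and Control replicate 1 was the lowest uninduced library at each.

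On the log2 scale of lost over other counts (each plus 0.5), induced libraries stood at -1.80 ± 0.989 and uninduced ones at 2.29 ± 0.448 at DIEXF (SD, n = 4 each), a difference of -4.09. The difference was -1.81 at ACIN1 (-1.98 ± 0.398 against -0.17 ± 0.473), -2.07 at LSR (-4.65 ± 0.507 against -2.58 ± 0.653) and -1.48 at WDR62 (-3.79 ± 0.0958 against -2.30 ± 0.481). Without Control replicate 1 these values were -4.25, -2.01, -2.39 and -1.70. The other windows are those that failed the loss call, so their sum is set in part by that split and by the strongest windows. Their summed CPM differed by 0.17 on the log2 scale at ACIN1, 0.17 at LSR and -0.05 at WDR62 (induced minus uninduced), and by -0.64 at DIEXF, where only 2 windows remained.

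**Figure D3:**
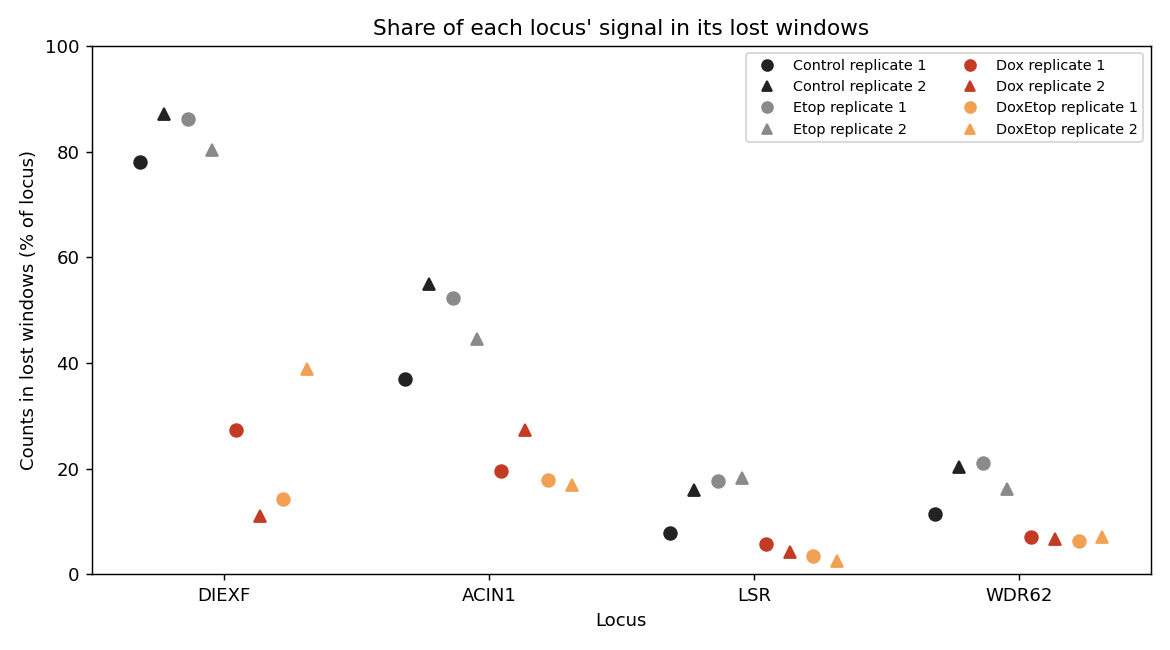
Share of each locus' summed window counts that fell in its lost windows (vertical axis, percent) for the 8 libraries at the 4 loci (horizontal axis); each point is a library. Uninduced libraries lie at 78.0% to 87.0% at DIEXF and 7.87% to 18.3% at LSR, above the induced libraries at every locus.

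The place of the strongest window is described next, a comparison within libraries chosen after the profiles were seen. It draws on the same AIRE difference that chose the loci and gives no separate support. At WDR62 the strongest window started at 36545701, which was called higher, in all 4 induced libraries. In the uninduced ones it started at 36545251 and 36545301 in Control and at 36545351 and 36545301 in Etop, 350 to 450 bp away. Of these, 36545351 was called lower, and 36545251 and 36545301 were not called. At DIEXF the strongest window started at 210001151 or 210001201 in uninduced and at 210001501 in induced libraries, where it held 8 to 17 counts. In both Dox libraries and DoxEtop replicate 1 it was tied with the next window. The 5 lost DIEXF windows held 0 to 5 counts in induced libraries, so this place follows from the loss call. At ACIN1 the induced libraries peaked between 23564051 and 23564201, in or next to the gained windows, with 3 windows tied in Dox replicate 1. The uninduced ones peaked at 23564251 to 23564401, except Etop replicate 2 at 23563801, so the ranges overlapped. LSR showed no such order: 35738901 was strongest in 4 libraries, 1 of them induced, 2 induced libraries peaked next to it at 35738851, and Control replicate 2 and DoxEtop replicate 2 peaked further on, at 35739651 and 35739301.

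**Figure D4:**
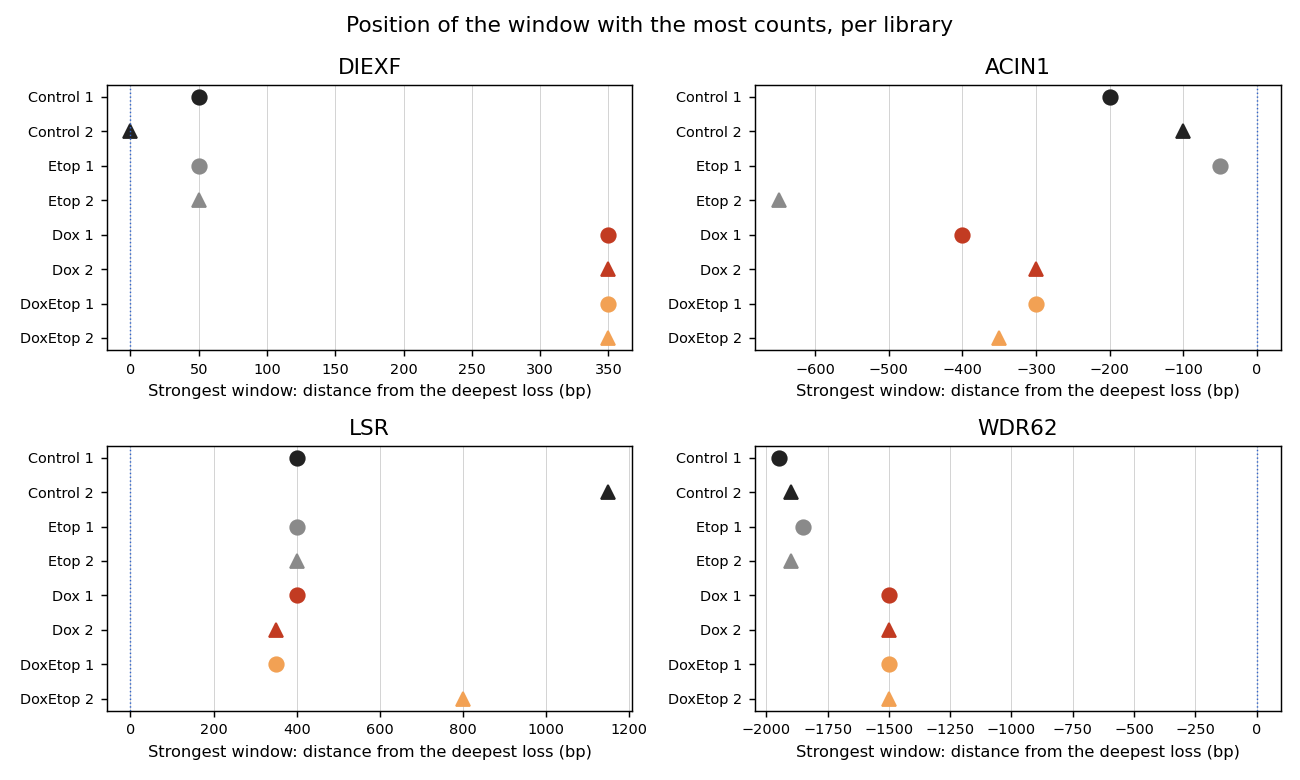
Start of the window with the most counts in each library (rows), as distance in bp from the window of deepest loss (horizontal axis), per locus. At WDR62 the 4 induced libraries share 1 window, 350 to 450 bp from those of the uninduced libraries, and at LSR the arms are mixed.

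The AIRE difference is given next without and with etoposide, in comparisons that share no library. Both enter the joint effect that chose the loci and the 36 windows, so their signs, calls and medians are set by that choice and are a description only. All 36 had negative log2 fold changes in both Dox vs Control and DoxEtop vs Etop. Of the 163 windows, 15 were called lower in Dox vs Control, against 0.848% of all windows, and 31 in DoxEtop vs Etop, against 2.43%. The medians of the 36 were -1.72 and -2.21. By locus, the medians without and with etoposide were -5.12 and -3.94 at DIEXF, -0.85 and -2.21 at ACIN1, -1.24 and -2.15 at LSR, and -2.32 and -2.09 at WDR62. Whether the AIRE difference depended on etoposide was tested by the interaction, a contrast the choice of loci did not use. Since the induction time of Dox is not given, this contrast may mix induction time with etoposide. With edgeR, 0 of the 163 windows passed (0% of all windows did, adjusted p = 1 at each of the 163). At an unadjusted p under 0.05 there were 13, against 10610 of the 256141 windows, and DESeq2 and limma-voom also called 0. The smallest unadjusted p was at 35738551 in LSR, next to the deepest loss. Its counts were 26 and 53 in Control, 73 and 35 in Etop, 8 and 6 in Dox, and 3 and 1 in DoxEtop. The log2 fold change went from -1.92 without to -4.50 with etoposide, a difference that did not pass edgeR's adjustment. At the deepest lost windows the standard error of the interaction reached 1.97, at WDR62. With such errors and 2 replicates a group, the missing calls do not show that the AIRE difference was equal without and with etoposide.

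**Figure D5:**
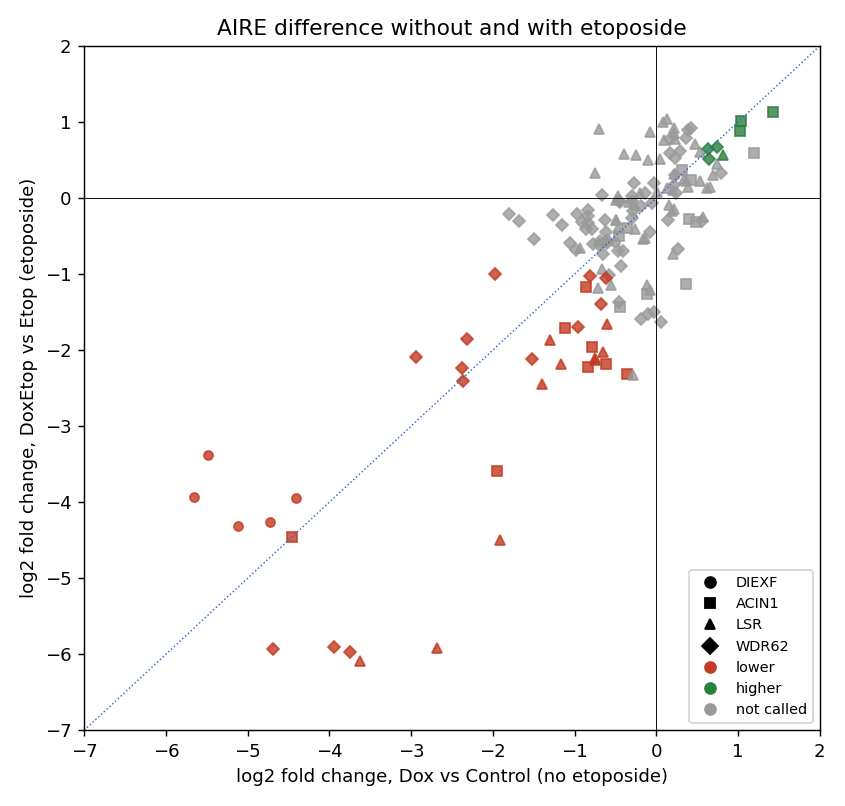
Log2 fold change of AIRE induction without etoposide (Dox vs Control, horizontal axis) and with it (DoxEtop vs Etop, vertical axis) for the 163 windows; red, green and grey points are windows called lower, higher and not called in the joint effect, and the dotted line marks equal values. All 36 lost windows lie below 0 on both axes, and the 5 lost DIEXF windows lie above the dotted line.

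Etoposide itself, which the choice of loci did not use, was tested in the same fits. As a main effect it was called at 0 of the 163 windows by edgeR (0% of all windows were called), with a smallest adjusted p of 0.815 in the loci. An unadjusted p under 0.05 occurred at 8 windows, 7 of them at LSR, against 14937 of the 256141 windows, and DESeq2 and limma-voom called 0 in the loci. At the deepest lost windows the etoposide log2 fold changes were 0.13 (SE 0.412) at DIEXF, 0.84 (SE 0.433) at ACIN1, 0.36 (SE 0.444) at LSR and 0.20 (SE 0.522) at WDR62. With standard errors of this size and 2 replicates a group, the missing calls do not show that etoposide left these windows as they were. Over the 36 lost windows the median was 0.17, and over all 163 it was -0.06, beside -0.000203 over the table.

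The 2 etoposide comparisons within an AIRE state gave no calls either. Etop vs Control and DoxEtop vs Dox each had 0 of 163 windows past edgeR's adjustment (0% of all windows in both), with smallest adjusted p of 0.863 and 0.9999. Unadjusted p under 0.05 occurred at 12 and 9 windows, against 14273 and 10923 of the 256141, and DESeq2 and limma-voom called 0 in the loci. The window with the smallest p for the etoposide main effect at LSR started at 35739851, in the middle of the region. It had 87 and 67 counts in Control, 32 and 28 in Etop, 67 and 50 in Dox, and 47 and 57 in DoxEtop. Both Etop libraries were below both Control libraries in CPM, while Dox and DoxEtop overlapped. At WDR62 it was the window at 36544801, with 46 and 68 counts in Control, 38 and 21 in Etop, 28 and 23 in Dox, and 13 and 13 in DoxEtop. Its log2 fold change for etoposide was -0.80 (SE 0.296), which did not pass adjustment (edgeR adjusted p = 0.815).

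All 36 lost windows kept a negative log2 fold change when any 1 library was left out, which their choice on these same libraries favours. Of these 36, limma-voom called 3, and 23 were called without Control replicate 2 or without DoxEtop replicate 1. Over the whole table, these fits called 625, 6639 and 8188 windows lower, against 15809 as reported.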

How the data were processed

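FAIRE-seq was carried out on 8 libraries, 2 replicates in each of 4 groups. The deposited table holds raw counts per 150 bp window (step 50 bp) on hg19. The submitters' processing notes name Trim Galore, Bowtie2 and Bowtie; how windows were chosen and counted is not given in the sources used here. Labels call the replicates independent, and p-values measure the spread between them. The whole table was fitted in R 4.3.3 with edgeR 4.0.16 (TMM scaling, quasi-likelihood test, Benjamini-Hochberg adjustment at 0.05), with AIRE induction and etoposide as factors (5 residual degrees of freedom) or with 1 mean per group (4). The low-count filter of edgeR removed 0 windows. DESeq2 1.42.0 and limma 3.58.1 (voom) were alternatives, beside other scalings, filters, a replicate block and leaving out each library. The fits were tested on simulated data. Windows with gaps of up to 100 bp were merged to regions. Named windows were, per locus, the deepest loss, the highest mean level, the highest not called lower, the smallest p for etoposide and interaction contrasts, and those nearest the threshold. Others are said to be chosen after their values were seen, and runs and regions are given by their ends. Fold intervals are exact binomial on pooled counts. Promoters were matched by symbol in RefSeq (4 of 4 genes). The loci, lists and rules were chosen with earlier results of these data known.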

Additional observations from a re-analysis of the deposited data

Results flagged for a closer look

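Outliers were sought in 46 sets of 4 libraries, induced or uninduced, at named windows or in the log2 ratio of lost to other counts. In each set, the gap between the farthest sample and the next was compared with the range of the set. In 3 sets, all at named windows, that sample stood apart, where chance gives about 1 in 20. Control replicate 1 had 4.58 CPM at the DIEXF window 210001201, below the other uninduced libraries. DoxEtop replicate 2 had 2.57 CPM at the ACIN1 window 23564601, below the other induced libraries. Control replicate 2 had 10.2 CPM at the WDR62 window 36544801, above the other uninduced libraries.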

How the results depend on the processing

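The count of 36 lost windows was 3 with limma-voom and 20 among windows of at least 200 summed counts. That filter left 103 of the 163 and 13 of the 36 to fit. Over the whole table the 15809 lower calls became 625 with limma-voom and 5474, of 69059 windows, with the filter. Leaving out 1 library gave 23 to 43 in the loci and 6639 to 19191 over the table. The count was 23 both without Control replicate 2 (6639 over the table) and without DoxEtop replicate 1 (8188). The 7 gained windows became 1 with limma-voom and 1 to 11 with 1 library left out: 11 without Control replicate 1, 1 without Control replicate 2, 2 without Dox replicate 2 and 1 without DoxEtop replicate 2. The LSR ratio of lost to other windows was -2.71 with lost windows taken at an adjusted p under 0.01. The WDR62 window 36547201 turned from -5.26 to 0.029 with loess offsets along the mean log count, an alternative chosen after seeing the data. With a replicate block 36 windows were lost. Same-numbered replicates did not deviate together (r -0.07 to 0.12). With 2 replicates a group, that does not settle whether the numbers pair the samples. Etoposide and interaction calls in the loci were 0 in each setting run. Over the whole table, edgeR called 0 windows for etoposide, 7 with the replicate block, 6 without Control replicate 2 and 23 without Etop replicate 1, and DESeq2 called 3. For the interaction it called 0, and 5 without Control replicate 2. At 0 to 4 counts in induced libraries at the deepest windows, the depth limits how far down a loss can be measured.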
